A study of Oryza sativa with 5 samples.

Results

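The transcripts described here are those annotated as wall-associated kinases or with the domain of unknown function DUF26, as found in RNA-seq of rice (Oryza sativa) roots. They were chosen by text: a transcript was a member if its function description held wall-associated, wall associated or DUF26 in any case. The rule found 43 of 40925 transcripts, at 41 of 34330 loci, and 40 of the 43 were listed in all 3 deposited tables. By their descriptions, 10 members were wall-associated kinases, 17 carried DUF26, and 16 transcripts of 14 loci carried DUF266. DUF266 is another, glycosyltransferase-like family that shares only the leading letters of the name, so it is kept apart below. All 10 wall-associated descriptions held the word kinase, and 0 of the 17 DUF26 descriptions did. The files therefore do not show which DUF26 transcripts encode receptor kinases, and they are called DUF26 transcripts.

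The study asked how the transcription factor gene OsNAC6 alters the root transcriptome. There were 5 libraries, 1 in each of 5 groups, all from roots of 2-week-old plants: nontransgenic Nipponbare (NT (Nipponbare)), Nipponbare carrying RCc3::OsNAC6, Nipponbare carrying GOS2::OsNAC6, nontransgenic Hwayoung (NT (Hwayoung)), and the OsNAC6 knockout nac6 in Hwayoung, a T-DNA insertion mutant. RCc3 is a promoter active in roots and GOS2 one active throughout the plant. Plants were grown under normal conditions, without a stress treatment. Neither the transgenic line nor the number of plants behind each library is given in the sources used here. The libraries held 22909804 to 26838552 recovered reads, at which 1 read is worth 0.0373 to 0.0436 RPM (reads per 1000000 recovered reads).

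The level of OsNAC6 itself, Os01t0884300-01, did not follow the labels. It had 6215 reads in NT (Nipponbare), 6050 in the RCc3::OsNAC6-labelled library, 6675 in the GOS2::OsNAC6-labelled library, 7600 in NT (Hwayoung) and 8215 in the nac6-labelled library. The log2 ratio to the nontransgenic library was −0.02 ± 0.03 in RCc3::OsNAC6, 0.37 ± 0.03 in GOS2::OsNAC6 and 0.31 ± 0.03 in nac6 (counting error only). Neither labelled overexpressor was 2-fold higher and the labelled knockout was not lower, so every direction below is between libraries as labelled. The study itself reported high OsNAC6 levels in roots of both overexpressors, from RNA gel blots of older plants. It also measured OsNAC6 by qRT-PCR in 2-week-old roots of the overexpressors and nac6. Those measurements are not part of the data used here, and the difference from them was not tested. Whether the reads of the nac6-labelled library come from intact OsNAC6 messages was not tested. The root markers RCc3, Lsi1 and Lsi2, which encode a root protein and silicon transporters, were present at 181.8 RPM or more in all 5 libraries. They were not level: RCc3 had 637.5 to 1151.3 RPM in the Nipponbare libraries and 206.0 and 181.8 RPM in the Hwayoung libraries. Lsi1 and Lsi2 were higher in both Hwayoung libraries than in the Nipponbare libraries. The nitrate transporter gene NRT2.1, also a root marker, ranged from 2.93 to 36.9 RPM and was lowest in the Hwayoung libraries. A list of 55 photosynthesis transcripts, which mark shoot tissue, summed to 37.3 to 59.4 RPM, lowest in the RCc3::OsNAC6-labelled library.

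Wall-associated kinases span the plasma membrane. Their outer part binds pectin in the cell wall and their inner part is a kinase, and they take part in cell expansion and in responses to pathogens and wall damage. In rice, the bacterial blight resistance gene Xa4 encodes a member of this family. DUF26 is an extracellular domain with conserved cysteines. It is found in cysteine-rich receptor-like kinases, in proteins located at plasmodesmata, and in small secreted proteins, among them the antifungal ginkbilobin of Ginkgo. Many plant genes with this domain respond to pathogens, salicylic acid or reactive oxygen species. Rice OsRMC (root meander curling), Os04t0659300-01, is a DUF26 protein named after a root phenotype and responsive to jasmonate. In the DUF266 family, rice BC10 is a glycosyltransferase-like protein needed for the mechanical strength of the plant.

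The DUF26 transcripts held most of the differences found among the members. In the nac6-labelled library, 11 of the 16 that could be measured were at least 2-fold higher than in NT (Hwayoung), beside 6.3% of all transcripts, and 0 were at least 2-fold lower, beside 3.65%. Of all 17, 12 were lower in each of the 3 Nipponbare libraries than in both Hwayoung libraries, beside 17.3% of all transcripts. In the RCc3::OsNAC6-labelled library, 4 of 14 were at least 2-fold higher than in NT (Nipponbare), beside 4.47% of all transcripts. In the GOS2::OsNAC6-labelled library it was 1 of 13, beside 1.83%. Roots hold many cell types, and in bulk RNA fewer cells of a type and less RNA per cell cannot be told apart.

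Summed over the 17 DUF26 transcripts, the level was 267.0 RPM in NT (Nipponbare), 312.3 in the RCc3::OsNAC6-labelled library, 276.3 in the GOS2::OsNAC6-labelled library, 4541 in NT (Hwayoung) and 7524 in the nac6-labelled library. This is 0.0267% of all reads in the lowest library and 0.752% in the highest. The Hwayoung libraries stood more than an order of magnitude above the Nipponbare libraries. With reads not corrected for length, OsRMC supplied 77.8% of the DUF26 reads of NT (Nipponbare), 73.7% of those of NT (Hwayoung) but 37.3% in the nac6-labelled library, where other DUF26 transcripts took a larger share. In each Nipponbare library 1 DUF26 transcript exceeded 100 RPM, and in each Hwayoung library 6 did.

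**Figure D1:**
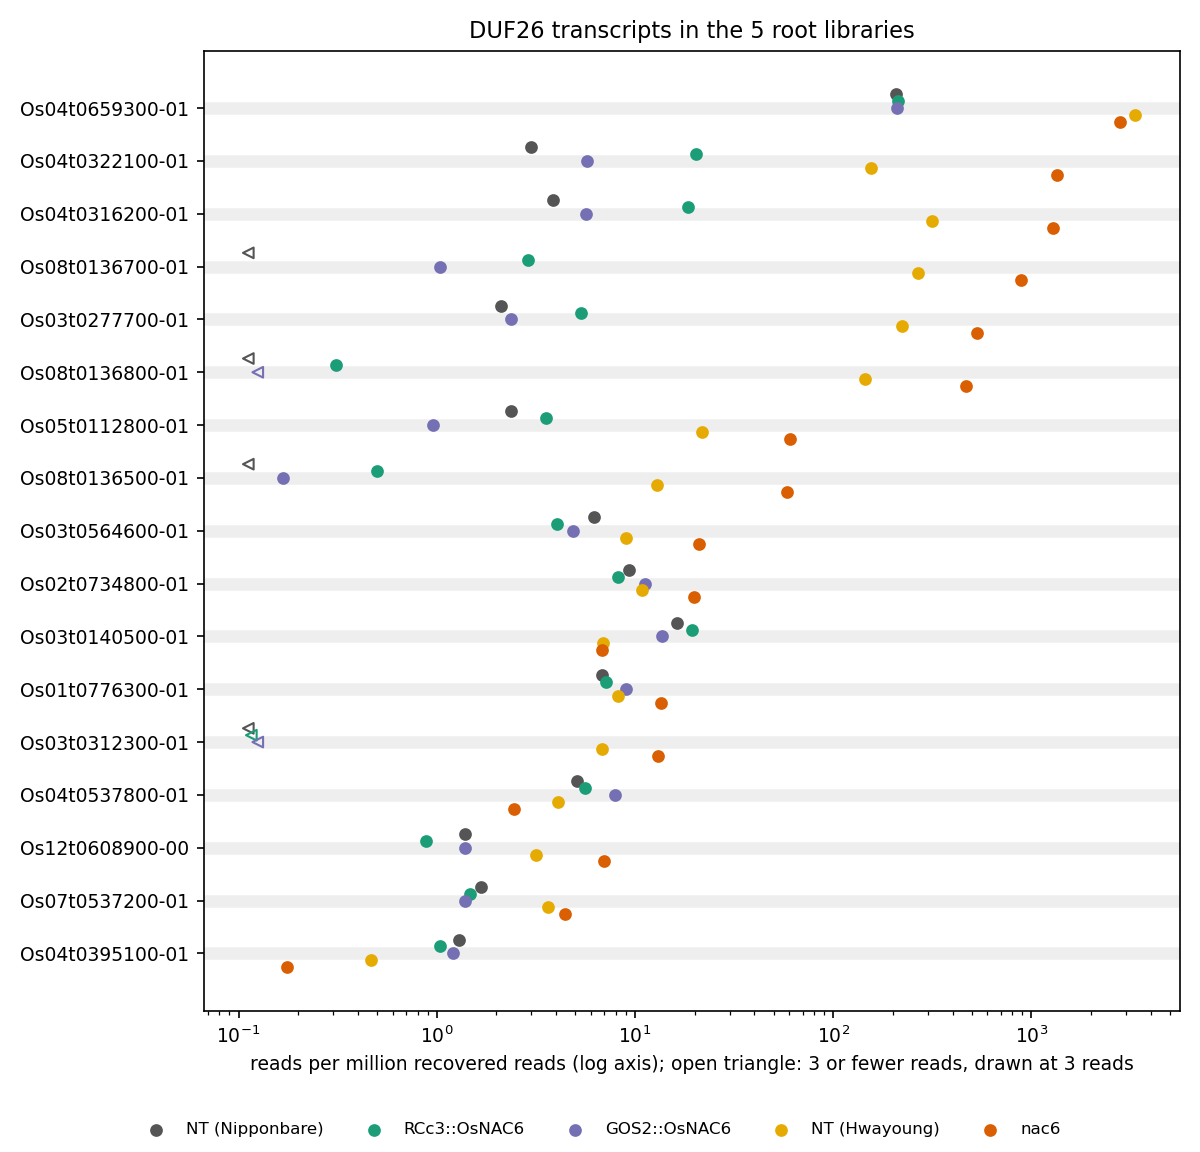
Level of each of the 17 DUF26 transcripts in each of the 5 libraries, in RPM on a log axis. Each point is 1 library, and an open triangle marks 3 or fewer reads, drawn at 3 reads. For 12 of the 17 transcripts both Hwayoung libraries lie to the right of all 3 Nipponbare libraries.

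For each comparison, the values used were the normalized counts that the authors deposited, and the measure was the log2 ratio after adding 1 to each value, which understates changes at low levels. A transcript counted as measured if the mean of the pair reached 10 normalized counts and was called when the pair differed at least 2-fold, the threshold that the study used. With 1 library per group there is no replicate error and no test: the standard errors (SE) and 95% intervals given here cover counting error only, and a difference beyond them is between these libraries and not shown to be between genotypes.

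Comparison of nac6 with NT (Hwayoung) asks what changes when OsNAC6 is lost. Of the 43 members, 39 passed the filter, 14 were at least 2-fold higher and 1 was at least 2-fold lower in the nac6-labelled library. Over all 30767 transcripts that passed, 6.3% were at least 2-fold higher and 3.65% at least 2-fold lower. The higher members were 11 of 16 DUF26, 1 of 9 wall-associated and 2 of 14 DUF266 transcripts. The median log2 ratio was 1.30 for the DUF26 transcripts, −0.16 for the wall-associated kinases and 0.17 for the DUF266 transcripts, beside −0.01 for all transcripts. Scaling to library totals moved the median of all transcripts to −0.16 and the share of higher among called transcripts from 63.3% to 45.4%. Under that scaling 9 of the 16 DUF26 transcripts were at least 2-fold higher, with a median of 1.16, beside 1854 of 33264 transcripts. At 4-fold, 3 members were higher, all of them DUF26 transcripts, beside 1.64% of all transcripts. No member had at least 100 reads in 1 library and 3 or fewer in the other, a pattern shown by 0.284% of transcripts in this pair, 0.03% in the RCc3::OsNAC6 pair and 0.0151% in the GOS2::OsNAC6 pair, where again 0 members had it.

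Os04t0322100-01 had 3666 reads in NT (Hwayoung) against 30781 in the nac6-labelled library, a ratio of 9.62 (95% interval 9.19 to 10.1) and a log2 ratio of 3.26 ± 0.03. In the Nipponbare libraries it had 80, 524 and 137 reads, in the order NT, RCc3::OsNAC6 and GOS2::OsNAC6. Each labelled line therefore exceeded its own nontransgenic library. Os04t0322100-01 was the only member called in all 3 comparisons of the study, a pattern not counted over all transcripts. The log2 ratio was 2.70 ± 0.23 in the RCc3::OsNAC6-labelled library and 1.03 ± 0.27 in the GOS2::OsNAC6-labelled library. Those 2 comparisons share the NT (Nipponbare) library and its 80 reads. The GOS2::OsNAC6 call was not made in both of the 2 count columns recovered for each library. The log2 ratio was 0.86 in the first alone and 1.20 in the second alone. With library totals it was 0.93, under the threshold. The 1 member called higher against NT (Nipponbare) was then Os08t0136700-01, with a log2 ratio of 2.84. It took the place of Os04t0322100-01 as the member called in all 3 comparisons. It passed because the filter of 10 was then applied to summed reads of both count columns, a looser cut than 10 normalized counts.

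Os04t0316200-01, a DUF26 transcript of the same chromosome, had 7407 reads in NT (Hwayoung) against 29336 in the nac6-labelled library, a log2 ratio of 2.18 ± 0.02. It had 104 reads in NT (Nipponbare), 481 in the RCc3::OsNAC6-labelled library and 135 in the GOS2::OsNAC6-labelled library. The log2 ratio was 2.20 ± 0.21 for RCc3::OsNAC6 and 0.63 ± 0.25, below the 2-fold threshold, for GOS2::OsNAC6. The order of the libraries was thus that of Os04t0322100-01 at both ends: lowest in NT (Nipponbare) and highest in the nac6-labelled library.

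Os03t0277700-01, from chromosome 3, had 5261 reads in NT (Hwayoung) against 12127 in the nac6-labelled library, a log2 ratio of 1.40 ± 0.03. Its Nipponbare counts were 57 in NT, 139 in the RCc3::OsNAC6-labelled library and 57 in the GOS2::OsNAC6-labelled library. The RCc3::OsNAC6-labelled library was at least 2-fold higher, with a log2 ratio of 1.28 ± 0.30, which was 0.98, under the threshold, in the first count column alone and 1.65 in the second. For GOS2::OsNAC6 the log2 ratio was 0.28 ± 0.36, the counting interval includes 0, and the columns gave −0.92 and 1.16.

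On chromosome 8, 3 DUF26 loci carry close identifiers, Os08g0136500, Os08g0136700 and Os08g0136800, and their transcripts were ordered much alike across the libraries. Os08t0136700-01 had 3 reads in NT (Nipponbare), 75 in the RCc3::OsNAC6-labelled library, 25 in the GOS2::OsNAC6-labelled library, 6344 in NT (Hwayoung) and 20335 in the nac6-labelled library. Os08t0136800-01 had 0, 8, 0, 3427 and 10703 reads in the same order. Os08t0136500-01 had 0, 13, 4, 305 and 1335 reads. All 3 were nearly silent in Nipponbare roots, present in NT (Hwayoung), and higher again in the nac6-labelled library. The log2 ratio of nac6 to NT (Hwayoung) was 1.88 ± 0.03 for Os08t0136700-01, 1.84 ± 0.04 for Os08t0136800-01 and 2.32 ± 0.12 for Os08t0136500-01. How reads shared by similar copies were assigned is not given in the sources used here, so the division of reads among these neighbours is uncertain.

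In Nipponbare, only the first of the 3 passed the filter and only against RCc3::OsNAC6. Its ratio there was 25.2 with an interval of 6.03 to 282.4, since the control held 3 reads. For Os08t0136500-01 the control held 0 reads, and against a floor of 3 reads per library the RCc3::OsNAC6 level was at least 4.39-fold higher. For Os08t0136800-01 the corresponding bound was 2.70-fold, from 8 reads. In the GOS2::OsNAC6-labelled library, Os08t0136700-01 had 25 reads against 3, a ratio with an interval of 2.12 to 118.3, and was below the filter.

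Of the other DUF26 transcripts called in the nac6 comparison, Os05t0112800-01 changed in opposite directions in different comparisons. It had 64 reads in NT (Nipponbare), 92 in the RCc3::OsNAC6-labelled library, 23 in the GOS2::OsNAC6-labelled library, 513 in NT (Hwayoung) and 1386 in the nac6-labelled library. It was at least 2-fold higher in the last, with a log2 ratio of 1.63 ± 0.10, and at least 2-fold lower in the GOS2::OsNAC6-labelled library, with −1.15 ± 0.46. The latter value was −0.91 in the first count column alone and −1.37 in the second.

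Os03t0564600-01 had 213 reads in NT (Hwayoung) against 481 in the nac6-labelled library, a log2 ratio of 1.36 ± 0.16, against 167, 105 and 116 reads in the Nipponbare libraries. Os12t0608900-00 went from 75 to 159 reads, a log2 ratio of 1.25 ± 0.27, and Os03t0312300-01 from 161 to 297 reads, a log2 ratio of 1.06 ± 0.19. Neither exceeded 37 reads in any Nipponbare library. Os02t0734800-01, named here after its values were seen, sat at the threshold with a log2 ratio of 1.03 ± 0.15 (256 and 455 reads). With library totals the calls of Os03t0312300-01 (6.83 and 13.0 RPM) and Os02t0734800-01 (10.9 and 19.9 RPM) were lost. Just below the 2-fold threshold lay Os01t0776300-01 with 0.88 ± 0.17 (194 and 311 reads).

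OsRMC was the exception among the abundantly read DUF26 transcripts. It had 5571 reads in NT (Nipponbare), 5521 in the RCc3::OsNAC6-labelled library, 5022 in the GOS2::OsNAC6-labelled library, 78862 in NT (Hwayoung) and 64355 in the nac6-labelled library. Within each cultivar the libraries lay close together, with log2 ratios of 0.01 ± 0.04 in RCc3::OsNAC6, 0.12 ± 0.04 in GOS2::OsNAC6 and −0.10 ± 0.01 in nac6. Between the nontransgenic libraries it was 16.1-fold higher in Hwayoung (15.5 to 16.7). Without a correction for length, it was among the 10 transcripts with the most reads in both Hwayoung libraries and not in any Nipponbare library.

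The remaining DUF26 transcripts were not called in any of the 3 comparisons of the study, though 3 differed at least 2-fold between the nontransgenic libraries. Os07t0537200-01 had 33 to 45 reads in the Nipponbare libraries and 86 and 101 in the Hwayoung libraries, and its log2 ratio was 0.42 ± 0.28 for nac6 and 1.10 between the nontransgenic libraries. Os03t0140500-01, Os04t0395100-01 and Os04t0537800-01 were the DUF26 transcripts with both Hwayoung libraries below all 3 Nipponbare libraries. Os03t0140500-01 had 328 to 506 reads in Nipponbare and 162 and 157 in Hwayoung, with a log2 ratio of −1.23 between the nontransgenic libraries. Os04t0395100-01 had 27 to 35 reads in Nipponbare, 11 in NT (Hwayoung) and 4 in the nac6-labelled library, and the ratio between the nontransgenic libraries was −1.41 in log2. Os04t0537800-01 had the lowest measured log2 ratio of the DUF26 transcripts in the nac6 comparison, −0.58 ± 0.32.

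**Figure D2:**
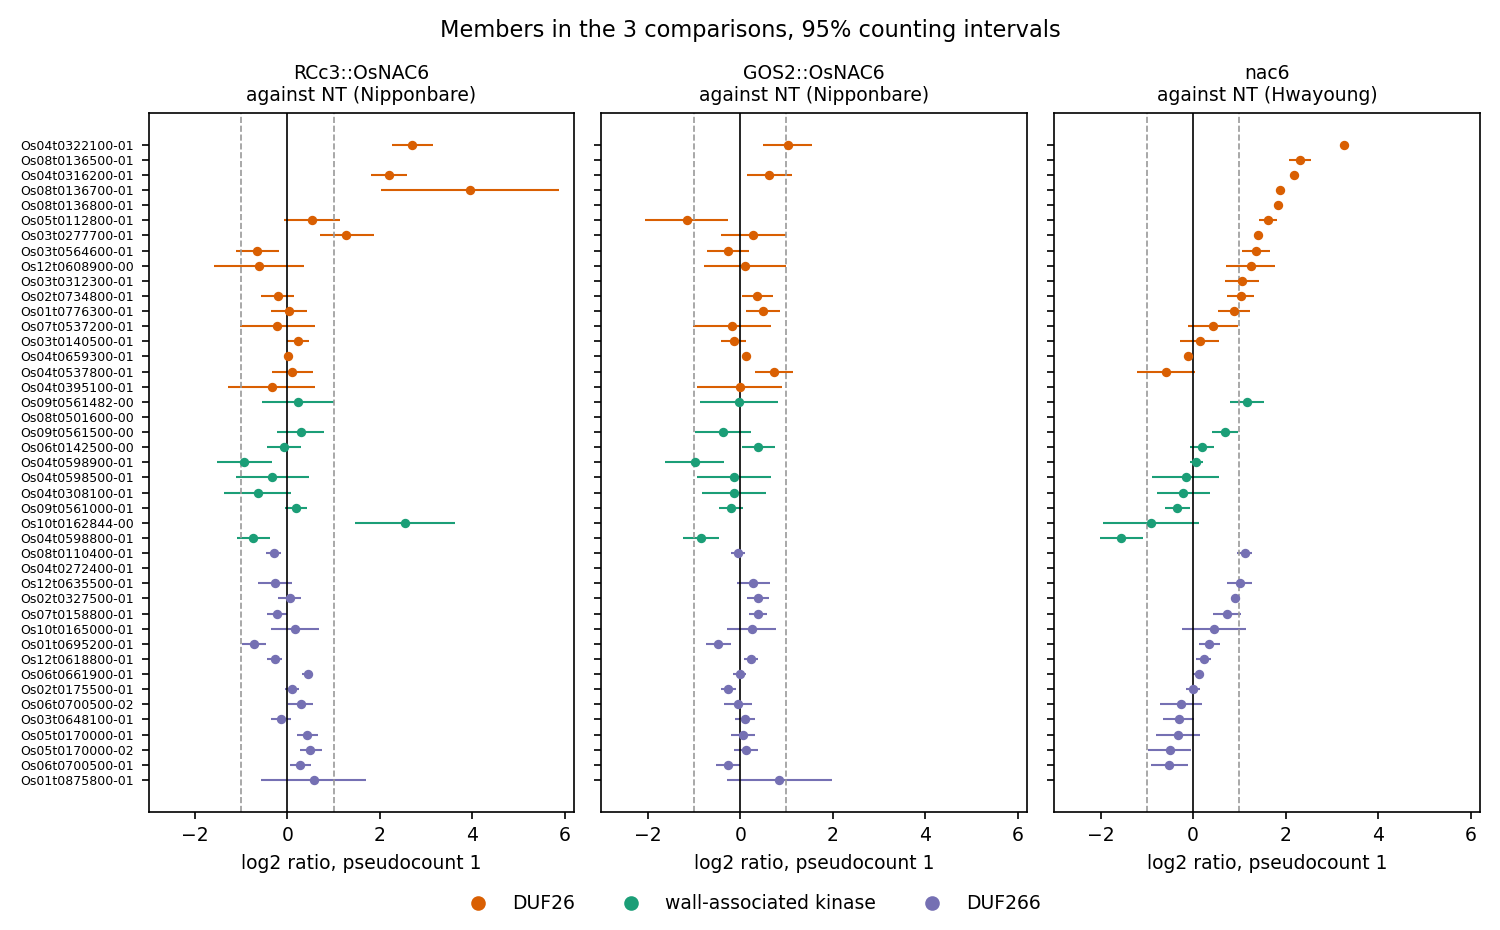
Log2 ratio of every member that passed the filter in each of the 3 comparisons, with a pseudocount of 1. Points are coloured by family, bars are 95% counting intervals and dashed lines mark 2-fold; in the nac6 panel 11 DUF26 points lie beyond the upper line and 0 beyond the lower one.

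The difference between the nontransgenic libraries was not a comparison of the study and was added after the data had been seen. The tables were normalized separately, so it was calculated from recovered reads scaled to library totals. Cultivar and any handling particular to these libraries cannot be told apart, with 1 nontransgenic library each. Over all 34307 transcripts that passed, 8.68% were at least 2-fold higher in NT (Hwayoung) and 17.5% at least 2-fold lower, with a median of −0.22. Of the 41 members that passed, 17 were higher and 5 lower. At 4-fold, 12 were higher, 9 of them DUF26 transcripts, beside 3.89% of all transcripts. The DUF26 transcripts accounted for 11 of the higher and 2 of the lower ones, of 17 that passed, and their median log2 ratio was 3.17. For the wall-associated kinases it was 5 of 9, with a median of 1.12, and for the DUF266 transcripts 1 of 15, with a median of −0.59. Size factors over the 5 libraries moved the median of all transcripts to 0.00 and kept the DUF26 count at 11, with a median of 3.38.

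In 4 DUF26 transcripts the contrast was one of presence against near absence, with at least 100 reads in NT (Hwayoung) and 3 or fewer in NT (Nipponbare). They were Os03t0312300-01 and the 3 transcripts on chromosome 8. Among all transcripts, 0.567% showed such a pattern between these libraries in either direction. Against the floor of 3 reads, NT (Hwayoung) was at least 61.1-fold higher for Os03t0312300-01, at least 115.7-fold for Os08t0136500-01 and at least 1301-fold for Os08t0136800-01. For Os08t0136700-01, with 3 reads in NT (Nipponbare), the ratio was 2408 with an interval of 608 to 26088.

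Several DUF26 transcripts that were expressed in both cultivars also stood far apart. NT (Hwayoung) exceeded NT (Nipponbare) 105.1-fold for Os03t0277700-01 (74.4 to 153.5), 81.1-fold for Os04t0316200-01 (62.7 to 106.7) and 52.2-fold for Os04t0322100-01 (38.9 to 71.6). For Os05t0112800-01 the ratio was 9.13 (6.45 to 13.3). In all, both Hwayoung libraries lay above the 3 Nipponbare libraries for 12 of the 17 DUF26 transcripts and below them for 3, beside 17.3% and 37.9% of all transcripts. The highest of the 5 libraries was the one labelled nac6 for 13 of the 17, beside 17.4% of all transcripts. The nac6 and cultivar contrasts share NT (Hwayoung), and no test of their relation was made.

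Comparison of RCc3::OsNAC6 with NT (Nipponbare) asks what root-directed OsNAC6 changes. Of 38 members that passed, 5 were at least 2-fold higher and 0 at least 2-fold lower in the RCc3::OsNAC6-labelled library. Among all 32487 transcripts these shares were 4.47% and 6.03%. At 4-fold, 4 members were higher, beside 0.766% of all transcripts. The 5 were the DUF26 transcripts Os08t0136700-01, Os04t0322100-01, Os04t0316200-01 and Os03t0277700-01, described above, and the wall-associated kinase Os10t0162844-00. The 4 DUF26 transcripts were also among the 11 of 16 that were at least 2-fold higher in the nac6-labelled library. The share of all transcripts higher in both comparisons was not counted, so no result is drawn from this overlap. The median log2 ratio was 0.08 for DUF26, −0.07 for wall-associated and 0.10 for DUF266 transcripts, beside 0.01 for all. The photosynthesis list had a median of −0.79 in this comparison, with 7 of 17 measured transcripts at least 2-fold lower, and its part in these values was not tested.

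With a filter of 50 normalized counts, 2 members, Os04t0322100-01 and Os04t0316200-01, remained among the higher ones in the RCc3::OsNAC6-labelled library. The other 3 rested on 3 to 57 control reads. Without any filter 8 members were higher, the added ones being low in every Nipponbare library. The share of all transcripts was not counted in either setting, so no result about the members is drawn from these counts.

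Comparison of GOS2::OsNAC6 with NT (Nipponbare) asks the same of whole-plant OsNAC6. Of 36 members that passed, 1 was at least 2-fold higher (Os04t0322100-01) and 1 at least 2-fold lower (Os05t0112800-01), beside 1.83% and 2.0% of 31987 transcripts. At 4-fold, 0 members were higher, beside 0.191% of all transcripts. Both calls lay within 1 SE of the 2-fold threshold, and each was lost with a pseudocount of 5, at 0.95 and −0.96. The median log2 ratio was 0.12 for DUF26, −0.17 for wall-associated and 0.11 for DUF266 transcripts, beside −0.01 for all. With library totals and their looser filter, which 34181 transcripts passed, the median of all transcripts was −0.11. The share of higher among called transcripts moved from 47.8% to 34.8%. The RCc3::OsNAC6 and GOS2::OsNAC6 comparisons share the NT (Nipponbare) library, so values set side by side are not independent.

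**Figure D3:**
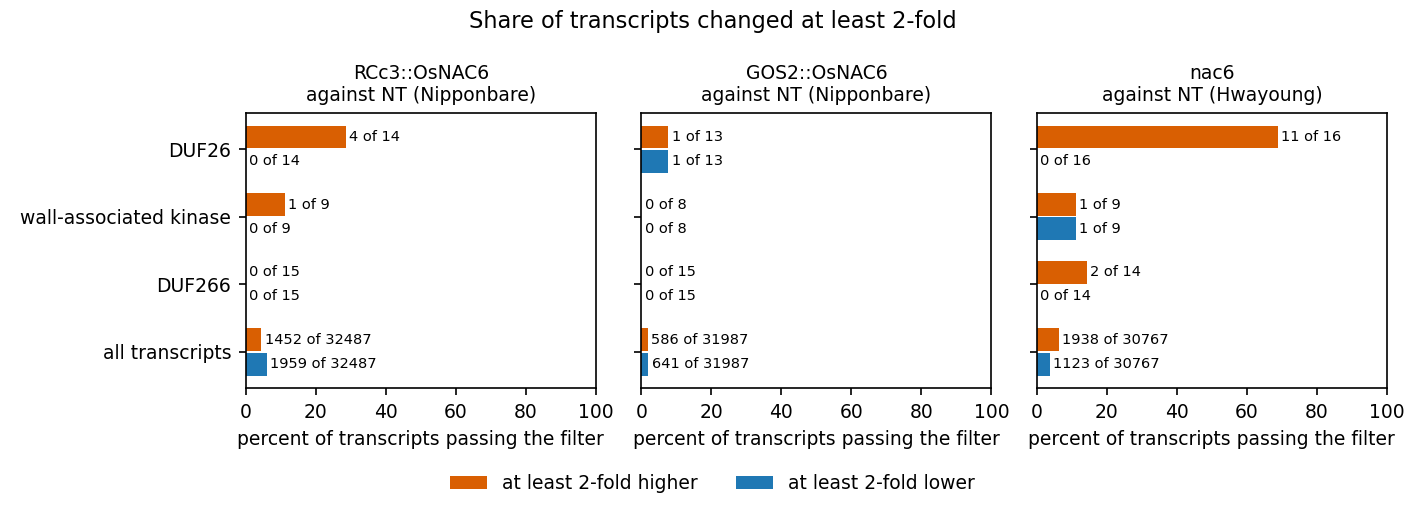
Percent of the transcripts passing the filter that were at least 2-fold higher or at least 2-fold lower, by family and for all transcripts, in the 3 comparisons. Numbers beside the bars are counts; the longest bar is that of the DUF26 transcripts in the nac6 comparison, 11 of 16.

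Of the 9 wall-associated kinases measured in the nac6 comparison, 1 was at least 2-fold higher and 1 at least 2-fold lower, beside 6.3% and 3.65% of all transcripts. Their summed level was 52.0 RPM in NT (Nipponbare), 51.5 in the RCc3::OsNAC6-labelled library, 40.6 in the GOS2::OsNAC6-labelled library, 136.5 in NT (Hwayoung) and 129.6 in the nac6-labelled library. The Hwayoung libraries were higher, and the nac6-labelled library was close to its own control. Both Hwayoung libraries lay above the 3 Nipponbare libraries for 6 of the 9 transcripts with a mean of 10 reads, and below them for 0, beside 17.3% and 37.9% of all transcripts.

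**Figure D4:**
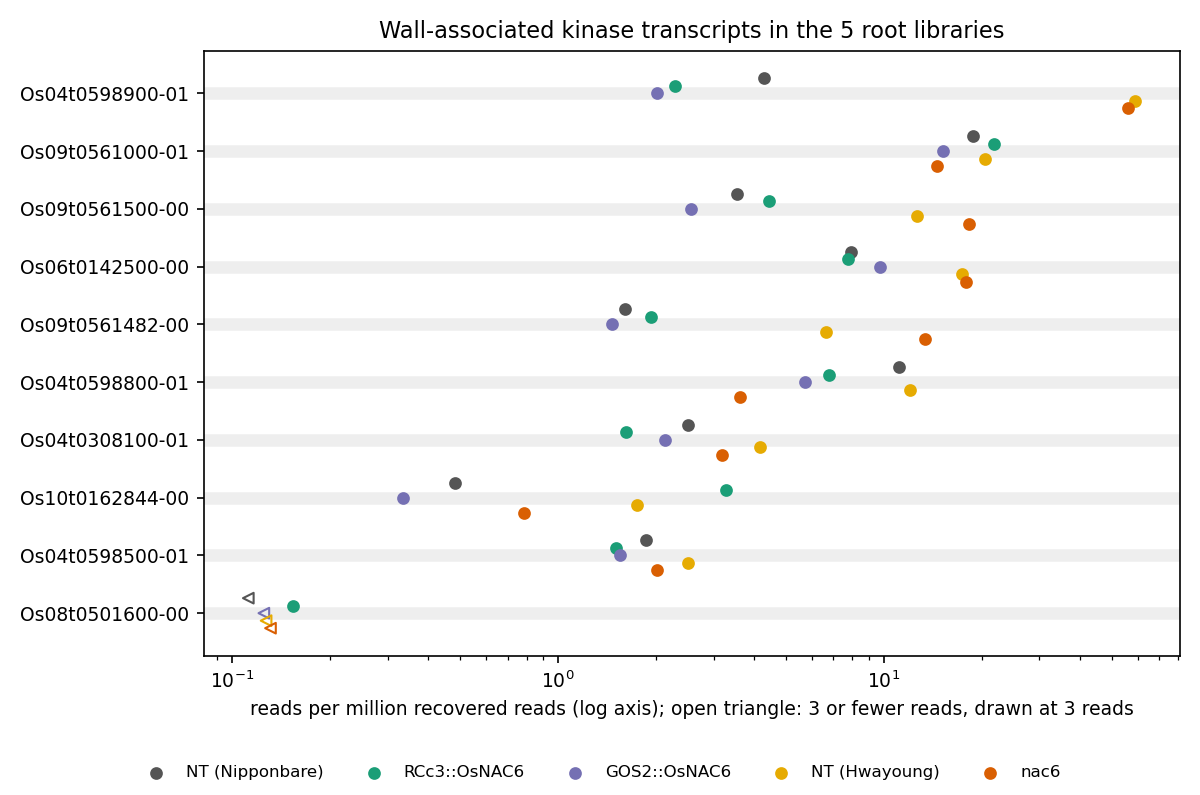
Level of each of the 10 wall-associated kinase transcripts in each of the 5 libraries, in RPM on a log axis. Each point is 1 library, and an open triangle marks 3 or fewer reads, drawn at 3 reads; Os04t0598900-01 shows the widest gap between the Hwayoung and the Nipponbare libraries.

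On chromosome 4, 3 wall-associated kinase loci carry close identifiers, Os04g0598500, Os04g0598800 and Os04g0598900, and here neighbours differed. Os04t0598800-01 had 299 reads in NT (Nipponbare), 176 in the RCc3::OsNAC6-labelled library, 137 in the GOS2::OsNAC6-labelled library, 283 in NT (Hwayoung) and 83 in the nac6-labelled library. Each labelled line was below its own nontransgenic library. Only the nac6-labelled library passed the threshold, with a log2 ratio of −1.56 ± 0.24, and it was the 1 member at least 2-fold lower there. The log2 ratios for RCc3::OsNAC6 and GOS2::OsNAC6 were −0.74 ± 0.18 and −0.85 ± 0.20.

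Os04t0598900-01 had 115, 59 and 48 reads in NT (Nipponbare) and the RCc3::OsNAC6- and GOS2::OsNAC6-labelled libraries, and 1393 and 1280 in NT (Hwayoung) and the nac6-labelled library. NT (Hwayoung) was 13.8-fold above NT (Nipponbare) (10.7 to 18.0), while the log2 ratio of nac6 was 0.07 ± 0.07. In Nipponbare the log2 ratios were −0.93 ± 0.30 for RCc3::OsNAC6 and −0.98 ± 0.33 for GOS2::OsNAC6. The second was at the threshold: without a pseudocount the ratio was 0.499, and with library totals (4.28 and 2.01 RPM) 1 wall-associated kinase was called lower in that comparison in place of 0. The third neighbour, Os04t0598500-01, had 37 to 59 reads in all 5 libraries and was not called in any comparison.

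On chromosome 9, Os09g0561000, Os09g0561482 and Os09g0561500 form another run of wall-associated kinases, described in the tables as like the wall-associated kinase-like genes. Os09t0561482-00 had 43, 50 and 35 reads in the Nipponbare libraries, 156 in NT (Hwayoung) and 307 in the nac6-labelled library. It was the only wall-associated kinase at least 2-fold higher in that library, with a log2 ratio of 1.16 ± 0.19. Os09t0561500-00 had 95, 115, 61, 296 and 419 reads in the same order, and its log2 ratio for nac6 was 0.69 ± 0.15. Os09t0561000-01 had 333 to 564 reads in all libraries, and its log2 ratio for nac6 was −0.34 ± 0.14. Identifiers alone give the order of the loci, and how reads shared by similar copies were assigned is not given in the sources used here.

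Os10t0162844-00, on chromosome 10, was read 13 times in NT (Nipponbare), 85 in the RCc3::OsNAC6-labelled library, 8 in the GOS2::OsNAC6-labelled library, 41 in NT (Hwayoung) and 18 in the nac6-labelled library. Its level was therefore highest in the RCc3::OsNAC6-labelled library, and it was the only wall-associated kinase called there, with a ratio of 6.61 (3.03 to 16.9) and a log2 ratio of 2.55 ± 0.55. For nac6 the log2 ratio was −0.91 ± 0.53. Os06t0142500-00 had 201 to 232 reads in Nipponbare and 408 and 409 in Hwayoung, and Os04t0308100-01 had 42 to 98 reads. Neither passed 2-fold in the 3 comparisons of the study. Os08t0501600-00 had 4 reads in the RCc3::OsNAC6-labelled library, 2 in the nac6-labelled library and 0 in the other libraries, too few for a comparison.

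The DUF266 transcripts, matched by letters only, had a summed level that ranged from 351.9 RPM in the GOS2::OsNAC6-labelled library to 517.7 in the nac6-labelled library. None of the 15 that passed was called against RCc3::OsNAC6 or against GOS2::OsNAC6. In the nac6-labelled library, Os08t0110400-01 was higher, with 761 reads in NT (Hwayoung) against 1437 and a log2 ratio of 1.12 ± 0.09. Os12t0635500-01 had 310 and 548 reads and a log2 ratio of 1.01 ± 0.14, a call at the threshold, named after its values were seen. Both calls were lost with library totals, where 0 of 14 were higher. With a pseudocount of 5 only Os08t0110400-01 remained. In the first count column alone only Os12t0635500-01 was called, and in the second alone only Os08t0110400-01, so neither call held in both columns. Os02t0327500-01 was higher in both Hwayoung libraries than in the others, with 459, 467 and 496 reads in Nipponbare and 2664 and 4345 in Hwayoung. In 8 of the 15 DUF266 transcripts with a mean of 10 reads, both Hwayoung libraries lay below all 3 Nipponbare libraries, an order shown by 37.9% of all transcripts. Between the nontransgenic libraries 3 of 15 were called lower, beside 17.5% of all transcripts. They were both isoforms of Os05g0170000, with log2 ratios of −1.41 and −1.20, and Os07t0158800-01 with −1.18. With size factors over the 5 libraries 1 DUF266 transcript was called lower, beside 4458 of 34147 transcripts. How reads shared by isoforms were counted is not given in the sources used here.

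Other families of the same signalling and wall processes gave the context, from lists set by words in the function text. In the nac6-labelled library, 6.3% of all transcripts were at least 2-fold higher and 3.65% at least 2-fold lower, with a median of −0.01. Leucine-rich repeat receptor kinases, which sense peptides and microbial patterns, had 0 of 18 higher and 2 lower in the nac6-labelled library, with a median log2 ratio of −0.52. For lectin and S-locus kinases the counts were 1 higher and 1 lower of 19, with a median of 0.18. All 1212 measured transcripts of other kinases together had 48 higher and 36 lower, with a median of −0.08. NADPH oxidases, which make reactive oxygen species outside the cell, had 0 of 10 called and a median of −0.66. RALF peptides, signals that bind malectin-like receptor kinases, had 1 of 6 higher and 0 lower, with a median of 0.51. Enzymes that modify pectin, the wall polymer that wall-associated kinases bind, had 6 higher and 2 lower of 59, with a median of 0.15. LysM proteins, which bind chitin and related sugars, had 0 of 10 called. Of the MAP kinases, which relay signals from such receptors, 2 of 49 were higher and 0 lower. Malectin and FERONIA-type transcripts had 0 of 4 higher and 1 lower.

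In the RCc3::OsNAC6-labelled library, these lists had 0 higher and 1 lower of 18 leucine-rich repeat kinases, 0 higher and 3 lower of 15 lectin and S-locus kinases, and 9 higher and 5 lower of 76 pectin enzymes. In the GOS2::OsNAC6-labelled library, 5 pectin enzymes were higher and 1 lower of 70. The medians of the pectin enzymes were 0.40 and 0.36 in the 2 comparisons, which share their control. Malectin and FERONIA-type transcripts had 0 higher in either, with 1 of 4 lower in the first and 2 of 4 in the second. Between the nontransgenic libraries, 8 of 19 lectin and S-locus kinases were higher in NT (Hwayoung) and 2 were lower. Over all transcripts, the shares higher and lower there were 8.68% and 17.5%. They were 4.47% and 6.03% for RCc3::OsNAC6, and 1.83% and 2.0% for GOS2::OsNAC6.

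The 2 count columns recovered for each library were compared with each other. What these columns are is not stated in the labels used here. For the 35 to 39 members with at least 20 reads in a library, the median log2 difference between the columns lay between −0.03 and 0.02. No member exceeded 2-fold between columns in NT (Nipponbare) or NT (Hwayoung). In the RCc3::OsNAC6- and nac6-labelled libraries 1 member did, and in the GOS2::OsNAC6-labelled library 2 did. Both columns of a library stand behind the same deposited values and cannot be taken as the spread between plants.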

How the data were processed

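RNA-seq was carried out on 5 rice root libraries, 1 per group, with a strand-specific kit on an Illumina instrument. The authors deposited 3 tables of RAP-DB transcripts, 1 per comparison, which give for each library a normalized read count, that is, a signal divided by size factors from DESeq within the table. The submitters' processing notes name build IRGSP-1.0. The aligner, the counting rule and the annotation release are not given in the sources used here. The tables also hold the authors' fold changes and p-values, which were not used. Columns carry library numbers, which were matched to the numbered sample descriptions.

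Each deposited value was the sum of 2 whole read counts, each times its own step. All values above 0 could be split, 99.445% to 99.997% of them in 1 way. A transcript not listed in a table was taken as 0 reads in that pair, which held for 596 of 596 and 374 of 374 that could be checked. Counting variance was multiplied by 1.76, the mean chi-square between the count columns. Of transcripts with 2 reads, 11.4% to 14.2% had 1 in each column, so reads may be mates and intervals too narrow. Chromosomes were read from locus identifiers.

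Calls needed a mean of at least 10 and a 2-fold difference, with a pseudocount of 1. With library totals and in the cultivar contrast, these applied to summed reads of both count columns, where the same cut is looser. A library at 0 was set to a floor of 3 reads for a fold value, which is not a confidence limit. Named were, per comparison, the 12 largest rises and falls among called members, members with 100 reads against 3 or fewer, members called in all 3 comparisons, the 6 with the most reads, and OsRMC. Other members are given for completeness. Members and lists were chosen with earlier results of these data known. Alternatives were other filters, pseudocounts, scalings, thresholds and count columns, and summed isoforms. Scripts were tested on simulated data. Python 3.11.15, pandas 2.3.3, numpy 2.4.6, scipy 1.17.1 and matplotlib 3.10.9 were used.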

Additional observations from a re-analysis of the deposited data

How the results depend on the processing

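No replicate could be left out with 1 library per group. No paired analysis was possible because each group has 1 library. The DUF26 count in the library labelled nac6 was 9 to 11 under all alternatives but the 4-fold threshold, where it was 3. Counts of all members moved as follows, given to show how the calls depend on the settings and not as results about the members. Without a filter, RCc3::OsNAC6 had 8 higher and 1 lower and GOS2::OsNAC6 3 higher. With a filter of 50, RCc3::OsNAC6 had 2 higher and GOS2::OsNAC6 0 lower. With a pseudocount of 5, GOS2::OsNAC6 had 0 higher and 0 lower. With library totals, GOS2::OsNAC6 and nac6 each had 2 lower, and nac6 had 10 higher in place of 14. At 4-fold, GOS2::OsNAC6 had 0 higher and 0 lower, nac6 3 higher and 0 lower, and the cultivar contrast 0 lower. In count column 1, GOS2::OsNAC6 had 0 higher and nac6 2 lower. In count column 2, RCc3::OsNAC6 had 2 lower and GOS2::OsNAC6 2 higher and 2 lower. With 50 reads as the limit, 1 member was present in only 1 library of the RCc3::OsNAC6 pair, beside 0.0726% of transcripts. Among alternatives chosen after seeing the data, the cultivar contrast had 3 lower with size factors over the 5 libraries. Without the DUF266 transcripts it had 2 lower and a median of 1.47.

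Medians changed sign in these cases. For GOS2::OsNAC6 the median of all members was −0.07 with library totals and −0.02 without the DUF266 transcripts. For RCc3::OsNAC6 the wall-associated median was 0.06 without a filter, 0.06 with a filter of 50 and 0.03 in count column 1, and the DUF266 median −0.01 in count column 1. For nac6 the wall-associated median was 0.13 with a filter of 50 and 0.03 in count column 2. Where construction does not show it, the cause was not tested. Low read numbers limit the Nipponbare ratios of DUF26 transcripts with under 100 reads.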
